A study of Mus musculus with 24 samples.

Results

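The 6 genes described here are those with the smallest p-values after loss of a single *Kat6a* allele in mouse neural stem and progenitor cells (NSPCs). They were chosen by the fitted difference between *Kat6a*+/– and *Kat6a*+/+ NSPCs, the first 3 genes by p in each of 2 culture conditions, from 26411 genes in the count tables. *St8sia4*, *Inpp4b* and *Peg3* were chosen in proliferating NSPCs, and *Rundc3a*, *Pnma1* and *Sfmbt2* in differentiating NSPCs. The cells came from the dorsal telencephalon, which forms the cortex, of E12.5 embryos on a C57BL/6 background. The embryos carried no, one or both copies of a null *Kat6a* allele that lacks several exons (*Kat6a*+/+, *Kat6a*+/– and *Kat6a*–/–; wildtype, heterozygous and homozygous, or WT, HET KO and HOM KO in the labels), and the allele is absent from every cell type rather than removed in a chosen one. Each library came from the cells of 1 embryo, frozen and later cultured for 3 days. Proliferating cultures held FGF2 and EGF, and differentiating cultures were on a coated surface with serum and without these factors. Under proliferating conditions, the paper describes wildtype cells as floating neurospheres and heterozygous colonies as smaller and prone to attach. Homozygous cells there formed few floating colonies, attached to uncoated plastic and proliferated more slowly. The part of growth form in the results was not tested. There were 4 libraries for each genotype in each condition, 24 in all, with total counts from 7826660 to 40838203.

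*Kat6a* encodes a histone lysine acetyltransferase, an enzyme that adds acetyl groups to histone H3 and is generally linked with active transcription. NSPCs are dividing cells of the embryonic brain that give rise to neurons and then glia. The 6 genes belong to unrelated pathways. *St8sia4* encodes a polysialyltransferase, which builds long chains of sialic acid on the neural cell adhesion molecule NCAM. *Inpp4b* encodes a phosphatase that removes a phosphate from a phosphoinositide lipid made downstream of phosphoinositide 3-kinase (PI3K). *Peg3* is an imprinted gene, expressed from the paternal allele, that encodes a zinc finger protein. *Rundc3a* encodes a RUN domain protein that binds the small GTPase RAP2 and is known from neurons. *Pnma1* encodes a paraneoplastic Ma antigen, a protein related to the Gag protein of retrotransposons. *Sfmbt2* encodes a Polycomb group protein with MBT repeats that partners with the DNA-binding protein YY1, and it is imprinted in some mouse tissues.

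Levels are in CPM, read counts relative to the library total after TMM scaling over all 24 libraries. A gene is said to have passed, or to be called, where limma gave it a false discovery rate (FDR) under 0.05 over all genes tested. None of the 6 choosing differences reached that threshold, and no gene was called in *Kat6a*+/– against *Kat6a*+/+ NSPCs, which is 0% of 12276 genes tested in proliferating and of 13339 in differentiating NSPCs. At an unadjusted p under 0.05 there were 912 and 1926 genes, and in place of limma edgeR called 0 genes in both conditions and DESeq2 called 28 and 8. In proliferating NSPCs the gene just inside the choice was *Peg3* (log2 fold-change −0.57, SE 0.09) and the gene just outside it was *Elfn2* (−1.16, SE 0.18), both at an FDR of 0.0692. In differentiating NSPCs these were *Sfmbt2* (1.50, SE 0.24) and *Shisa2* (−1.33, SE 0.21), both at an FDR of 0.0979. The HET difference in the condition that chose a gene is therefore given as a description. *Kat6a*–/– against *Kat6a*+/+ in that condition uses the same *Kat6a*+/+ libraries and is given as a value as well. Tests were run on *Kat6a*–/– against the midpoint of the other genotypes and on the condition in which a gene was not chosen. The midpoint contrast had little correlation with the choosing difference (0.0355 in proliferating and −0.188 in differentiating NSPCs). It still uses the libraries that chose the genes and their residual spread, so its p-values and FDR are not independent of the choice.

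Some features of the libraries touched these results. Gene-level counts did not single out the deleted exons: *Kat6a* was at 389 ± 16.5, 348 ± 16.3 and 350 ± 24.2 CPM in proliferating wildtype, heterozygous and homozygous NSPCs (mean ± SD, n = 4 each). Differentiating *Kat6a*–/– NSPCs had a *Kat6a* log2 fold-change of −0.69 (SE 0.08, FDR 3.33e-05). Those libraries held 157.7, 249.6, 161.4 and 185.1 CPM, and replicate 2 (249.6 CPM) lay within the wildtype range of 235.1 to 287.3 CPM. The fit of differentiating libraries used quality weights, and 1 *Kat6a*–/– library, replicate 3, carried 69.0% of its group's weight. Fibroblast and meningeal transcripts (8 markers, summed) were at 128 to 703 CPM in differentiating *Kat6a*+/+, 502 to 1354 CPM in heterozygous and 435 to 5952 CPM in homozygous NSPCs, with replicates 1 and 3 of *Kat6a*–/– the highest at 5952 and 4738 CPM. Their part in the results was not tested in general. Values without both libraries stand beside the *Kat6a*–/– tests of the 6 genes in differentiating NSPCs, the interaction and the count of pathway genes, but not beside single pathway genes or the comparison of conditions. Neural progenitor markers were high in all groups, with sums of 7446 to 14630 CPM over 12 genes, whereas the microglial markers summed to at most 8.25 CPM, with *C1qa* at 0 in every library. Differentiating *Kat6a*–/– replicate 2, which stays in the fits without replicates 1 and 3, held that highest progenitor sum. Its astrocyte markers (8 genes) summed to 7559 CPM, against 1527, 1695 and 3476 CPM in the rest of its group. The part of this library's make-up in the results was not tested. More reads of *Xist* than of Y-linked genes were found, in either condition, in 1 of 4 wildtype, 3 of 4 heterozygous and 3 of 4 homozygous libraries, so sex and genotype were partly confounded. In these cultures, fewer cells of a type and less RNA per cell cannot be told apart.

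**Figure D1:**
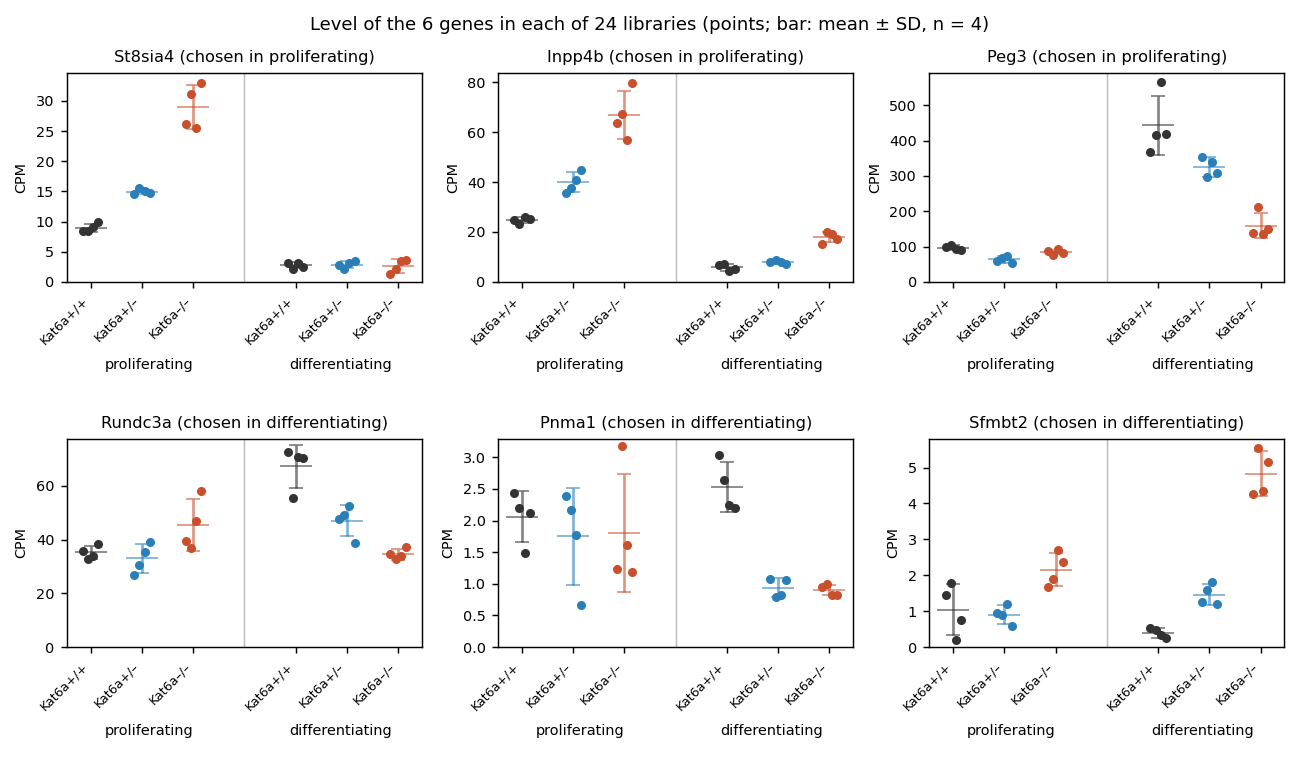
Level of each gene in CPM (linear axes from 0) in the 24 libraries. Points are libraries, and bars are the mean ± SD of 4. *St8sia4* is stepped by genotype in proliferating NSPCs (means 8.93, 14.9 and 28.9 CPM) and flat in differentiating NSPCs, while *Sfmbt2* is stepped in differentiating NSPCs (0.402, 1.46 and 4.83 CPM).

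*St8sia4* (Entrez 20452; mm39 chromosome 1, 95515404 to 95595355, minus strand) was stepped by *Kat6a* dose in proliferating NSPCs. The *Kat6a*+/+ libraries held 8.40, 8.41, 9.02 and 9.87 CPM. The *Kat6a*+/– libraries held 14.6, 15.5, 15.0 and 14.7 CPM. The *Kat6a*–/– libraries held 26.2, 31.1, 25.5 and 33.0 CPM. No 2 genotypes overlapped, and all *Kat6a*+/– libraries lay in the gap between the others. The difference that chose the gene was a log2 fold-change of 0.78 (SE 0.12). That of *Kat6a*–/– against *Kat6a*+/+, which shares the *Kat6a*+/+ libraries, was 1.74 (SE 0.11). The first was 44.7% of the second on the log2 scale, a share that the choice of extreme *Kat6a*+/– differences can enlarge. Against the midpoint of the other genotypes, *St8sia4* rose in *Kat6a*–/– NSPCs by 1.35 on the log2 scale (FDR 2.35e-06). An exact two-sided permutation of the 4 *Kat6a*–/– against the other 8 libraries gave p = 0.00202, the smallest that its 495 splits can give.

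In differentiating NSPCs the same gene was low and showed no steps. Its levels were 3.15, 2.21, 3.14 and 2.40 CPM in wildtype, 2.79, 2.11, 3.07 and 3.51 CPM in heterozygous and 1.29, 2.20, 3.44 and 3.63 CPM in homozygous NSPCs. All 3 genotypes overlapped. The log2 fold-change was −0.05 (SE 0.26, FDR 0.954) in *Kat6a*+/– and −0.02 (SE 0.25, FDR 0.960) in *Kat6a*–/– NSPCs, and the latter was −0.05 (FDR 0.932) without *Kat6a*–/– replicates 1 and 3. With 19 to 66 counts per library, even a change well above these standard errors could go uncalled. In the same fit the *Inpp4b* log2 fold-change of 0.48 (SE 0.18) in *Kat6a*+/– NSPCs had an FDR of 0.272.

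*Inpp4b* (Entrez 234515; mm39 chromosome 8, 82069185 to 82854543, plus strand) had a higher mean with each lost allele in both conditions, though *Kat6a*+/– was not called in either. It lies 58.6 Mb from *Kat6a* on the same chromosome. The proliferating levels were 24.9, 23.4, 26.0 and 25.2 CPM in wildtype, 35.7, 37.8, 41.0 and 44.9 CPM in heterozygous and 63.8, 67.5, 56.9 and 79.9 CPM in homozygous libraries. The 3 genotypes were fully separated. The choosing log2 fold-change was 0.65 (SE 0.10) and that of *Kat6a*–/– was 1.42 (SE 0.10). Against the midpoint, *Inpp4b* rose by 1.09 on the log2 scale (FDR 3.50e-06; exact permutation p = 0.00202). Astrocyte markers moved the same way as *St8sia4* and *Inpp4b* in these proliferating libraries. Their sum over 8 genes was 918 to 1133 CPM in wildtype, 1125 to 1546 CPM in heterozygous and 1536 to 2222 CPM in homozygous libraries, and 5 of the 7 tested were called higher in *Kat6a*–/– NSPCs (0 lower, and 0 called in *Kat6a*+/–). Their part in either result was not tested.

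In differentiating NSPCs, where *Inpp4b* was not chosen, the levels were lower but stood in the same order. They were 6.83, 7.10, 4.33 and 5.16 CPM in wildtype, 8.02, 8.76, 8.11 and 7.02 CPM in heterozygous and 15.3, 19.9, 19.0 and 17.2 CPM in homozygous libraries. Only the *Kat6a*–/– libraries stood clear, as the lowest *Kat6a*+/– library lay just under the highest *Kat6a*+/+ library. *Inpp4b* rose in *Kat6a*–/– NSPCs by 1.67 on the log2 scale (SE 0.17, FDR 1.07e-05) and differed from *Kat6a*+/– by 1.19 (SE 0.20, FDR 0.00105). The *Kat6a*+/– log2 fold-change of 0.48 (SE 0.18, FDR 0.272) did not pass the test. Without *Kat6a*–/– replicates 1 and 3 the *Kat6a*–/– value was 1.70 (FDR 0.00447).

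*St8sia4* and *Inpp4b*, which rose together in proliferating NSPCs, each have a CG-rich stretch before the start. The 250 bases before the RefSeq start (build GRCm38.p6; *St8sia4* chr1:95667595-95667844, minus strand; *Inpp4b* chr8:81342312-81342561, plus strand) are shown 5′ to 3′ with CG dinucleotides in capitals.
*St8sia4*: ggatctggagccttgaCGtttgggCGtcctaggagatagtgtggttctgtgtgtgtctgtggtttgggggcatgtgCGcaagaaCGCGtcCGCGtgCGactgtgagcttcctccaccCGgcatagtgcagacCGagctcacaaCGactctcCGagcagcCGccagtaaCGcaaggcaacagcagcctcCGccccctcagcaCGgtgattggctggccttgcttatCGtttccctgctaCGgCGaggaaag
*Inpp4b*: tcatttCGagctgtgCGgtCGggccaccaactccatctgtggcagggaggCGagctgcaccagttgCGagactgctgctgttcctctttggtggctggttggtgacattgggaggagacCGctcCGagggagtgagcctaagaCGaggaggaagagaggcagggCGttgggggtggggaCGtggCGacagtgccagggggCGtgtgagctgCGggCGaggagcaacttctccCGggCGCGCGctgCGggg
Each holds 19 CG, whereas the median of 32851 such windows was 6, with quartiles of 2 and 16. Windows were found for 5 of the 6 genes, with 8 CG for *Peg3*, 15 for *Pnma1*, and 8 and 15 for both starts of *Sfmbt2*. *Rundc3a* had no entry. The YY1 core GCCATNTT, searched on both strands because YY1 is the partner of SFMBT2, was in 0 of the 6 windows and in 3.91% of all windows.

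*Peg3* (Entrez 18616; mm39 chromosome 7, 6706882 to 6733468, minus strand) was not stepped by dose in the condition that chose it. The proliferating levels were 98.7, 104.6, 92.3 and 89.5 CPM in wildtype, 59.9, 68.2, 72.7 and 53.0 CPM in heterozygous and 86.6, 76.6, 93.1 and 81.7 CPM in homozygous libraries. The *Kat6a*+/– libraries were the lowest, below all 8 others, and the *Kat6a*–/– libraries overlapped the *Kat6a*+/+ libraries. The choosing log2 fold-change was −0.57 (SE 0.09), whereas that of *Kat6a*–/– was −0.14. *Kat6a*–/– lay 0.43 (SE 0.09) above *Kat6a*+/– on the log2 scale, a value that rests on the libraries that chose the gene. Against the midpoint, *Kat6a*–/– differed by 0.15 (FDR 0.168; exact permutation p = 0.568), which did not pass.

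In differentiating NSPCs *Peg3* was several-fold more abundant and was lowest in *Kat6a*–/– libraries. The levels were 368.9, 417.0, 565.1 and 420.0 CPM in wildtype, 354.8, 295.8, 340.6 and 308.9 CPM in heterozygous and 138.2, 211.1, 136.8 and 148.6 CPM in homozygous libraries. No 2 genotypes overlapped, with *Kat6a*+/– in the middle. In *Kat6a*–/– NSPCs *Peg3* fell by 1.64 on the log2 scale (SE 0.15, FDR 5.24e-06) and differed from *Kat6a*+/– by −1.24 (SE 0.17, FDR 0.000382). The *Kat6a*+/– log2 fold-change of −0.40 (SE 0.15, FDR 0.279) did not pass. Without *Kat6a*–/– replicates 1 and 3 the fall was −1.32 (FDR 0.00773).

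*Rundc3a* (Entrez 51799; mm39 chromosome 11, 102283896 to 102293398, plus strand) had a lower mean with each lost allele in differentiating NSPCs. The levels were 72.5, 55.4, 70.7 and 70.2 CPM in wildtype, 47.8, 49.2, 52.5 and 38.7 CPM in heterozygous and 34.5, 32.6, 33.8 and 37.4 CPM in homozygous libraries. The 3 genotypes were separate, with narrow gaps between neighbours. The choosing log2 fold-change was −0.57 (SE 0.09) and that of *Kat6a*–/– was −1.02 (SE 0.08). The first was 56.0% of the second, a share that the choice can enlarge. Against the midpoint, *Rundc3a* fell by 0.74 on the log2 scale (FDR 1.81e-05; exact permutation p = 0.00606), and by 0.71 (FDR 0.0103) without *Kat6a*–/– replicates 1 and 3. The 16 neuronal markers summed to 672 to 875 CPM in wildtype, 609 to 833 CPM in heterozygous and 657 to 1044 CPM in homozygous libraries, overlapping between all genotypes. Of the 14 neuronal markers tested there, 7 were called lower and 3 higher in *Kat6a*–/– NSPCs, and 0 were called in *Kat6a*+/–. By flow cytometry, the paper found fewer cells with the neuronal protein βIII-tubulin in differentiating heterozygous and homozygous cultures than in wildtype cultures. It therefore reads its differentiating RNA results as a mix of cell type composition and direct effects. The overlapping sums of marker RNA do not show that neuron numbers were alike. The part of the neuronal markers, or of neuron numbers, in the *Rundc3a* result was not tested.

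The order of *Rundc3a* was different in proliferating NSPCs. The levels were 35.9, 32.7, 33.7 and 38.5 CPM in wildtype, 26.9, 30.6, 35.3 and 39.0 CPM in heterozygous and 39.6, 36.7, 46.8 and 58.2 CPM in homozygous libraries. The *Kat6a*–/– libraries reached highest and overlapped both other genotypes. The log2 fold-change was 0.35 (SE 0.12, FDR 0.0474) in *Kat6a*–/– and −0.10 (SE 0.12, FDR 0.901) in *Kat6a*+/– NSPCs. The first passed the test narrowly and lost its call under 15 of 22 alternative settings, with an FDR of up to 0.694. Leaving out any single wildtype library, homozygous replicate 1, 3 or 4 or heterozygous replicate 2 was enough (FDR 0.0599 to 0.148).

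*Pnma1* (Entrez 70481; mm39 chromosome 12, 84192905 to 84195263, minus strand) was low throughout, and in differentiating NSPCs both mutant genotypes lay at a similar level. The levels were 3.04, 2.64, 2.24 and 2.19 CPM in wildtype, 1.07, 0.791, 0.822 and 1.06 CPM in heterozygous and 0.949, 0.994, 0.831 and 0.827 CPM in homozygous libraries. Every mutant library lay below every *Kat6a*+/+ library, and the mutant genotypes overlapped. These are 12 to 19 counts per mutant library and 47 to 56 per *Kat6a*+/+ library. The choosing log2 fold-change was −1.31 (SE 0.21) and that of *Kat6a*–/– was −1.47 (SE 0.19), and the mutant genotypes differed by −0.16 (SE 0.23). Against the midpoint, *Pnma1* passed the test at −0.82 (FDR 0.00280), but lost its call under 5 of 23 alternative settings, the exact permutation (p = 0.105) and the fit without *Kat6a*–/– replicates 1 and 3 (FDR 0.165) among them. Without replicate 1 alone its FDR was 0.285 and without replicate 3 alone it was 0.407.

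In proliferating NSPCs *Pnma1* was between 0.673 and 3.17 CPM with no separation of genotypes. The means were 2.06 ± 0.406 CPM in wildtype, 1.75 ± 0.760 CPM in heterozygous and 1.80 ± 0.937 CPM in homozygous NSPCs (SD, n = 4). The log2 fold-change was −0.31 (SE 0.33, FDR 0.890) in *Kat6a*+/– and −0.21 (SE 0.35, FDR 0.683) in *Kat6a*–/– NSPCs. No direction was therefore drawn for *Pnma1* in this condition.

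*Sfmbt2* (Entrez 353282; mm39 chromosome 2, 10375306 to 10600064, plus strand) had the widest steps of the 6 genes in differentiating NSPCs. The levels were 0.542, 0.484, 0.333 and 0.248 CPM in wildtype, 1.25, 1.58, 1.81 and 1.19 CPM in heterozygous and 4.27, 5.54, 4.34 and 5.15 CPM in homozygous libraries. All 3 genotypes were separate. The *Kat6a*+/+ libraries held only 6 to 10 counts each, the *Kat6a*+/– libraries 18 to 33 and the *Kat6a*–/– libraries 63 to 106. The choosing log2 fold-change was 1.50 (SE 0.24) and that of *Kat6a*–/– was 3.13 (SE 0.23). The first was 48.0% of the second, a share that the choice can enlarge. Against the midpoint, *Sfmbt2* rose by 2.38 on the log2 scale (FDR 7.01e-06; exact permutation p = 0.00202). It was 2.64 (FDR 0.00500) without *Kat6a*–/– replicates 1 and 3, and those libraries held the lower values of their group.

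In proliferating NSPCs the *Kat6a*–/– libraries of *Sfmbt2* were again high, without a step in *Kat6a*+/–. The levels were 1.44, 1.78, 0.198 and 0.750 CPM in wildtype, 0.951, 0.889, 1.21 and 0.577 CPM in heterozygous and 1.67, 1.90, 2.70 and 2.36 CPM in homozygous libraries. The *Kat6a*–/– libraries lay above all *Kat6a*+/– libraries and overlapped the widely spread *Kat6a*+/+ libraries. The log2 fold-change of *Kat6a*–/– was 1.31 (SE 0.42, FDR 0.0313), and that of *Kat6a*+/– was 0.08 (SE 0.46, FDR 0.986). The call was lost under 9 of 22 alternative settings, and without *Kat6a*+/+ replicate 3, which held 2 counts, the value was 0.78 (FDR 0.0795). It was lost as well without wildtype replicate 4 or homozygous replicate 3 or 4 (FDR 0.0651 to 0.0739).

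**Figure D2:**
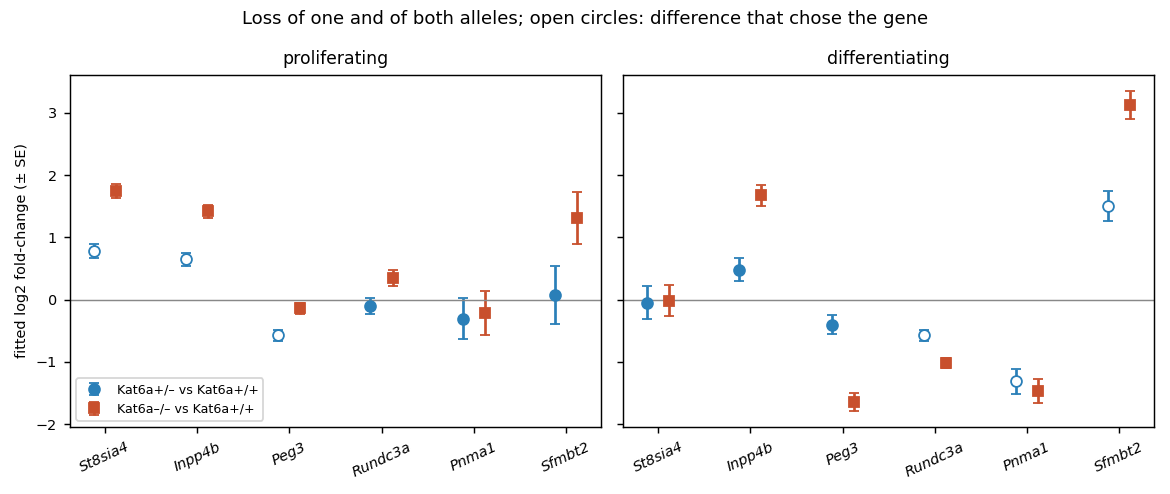
Fitted log2 fold-change against *Kat6a*+/+ NSPCs (± SE) for *Kat6a*+/– (circles) and *Kat6a*–/– (squares) in each condition. Open circles are the differences that chose the genes and carry no test. *Kat6a*+/– lies between 0 and *Kat6a*–/– in both panels for *Inpp4b* and *Sfmbt2*, though close to 0 (0.08) for *Sfmbt2* in the proliferating panel. It does so for *St8sia4* in the proliferating panel alone, and for *Peg3*, *Rundc3a* and *Pnma1* in the differentiating panel alone.

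Counted over the genes, 5 of 6 were called in *Kat6a*–/– NSPCs against the midpoint of the other genotypes in the choosing condition. *St8sia4*, *Inpp4b* and *Sfmbt2* rose, *Rundc3a* and *Pnma1* fell, and *Peg3* did not pass. The *Pnma1* call rests on the high *Kat6a*+/+ libraries of the choosing difference, as its mutant genotypes differed by −0.16 (SE 0.23, FDR 0.599). Over all tested genes the midpoint contrast was called for 30.7% in proliferating and 52.6% in differentiating NSPCs, so such calls were common. In the condition that had not chosen them, 0 of 6 genes were called in *Kat6a*+/– and 4 of 6 in *Kat6a*–/– NSPCs, beside 30.0% and 54.4% of all genes in proliferating and differentiating NSPCs for the latter. For *Kat6a*+/–, 2 of the 6, *Inpp4b* and *Peg3* in differentiating NSPCs, had an unadjusted p under 0.05 with limma, and edgeR and DESeq2 called 0. Without the embryos that occur in both conditions only *Inpp4b* and *Peg3* of the 4 kept a call.

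The libraries were also compared by whether their ranges overlapped. In the choosing condition the *Kat6a*+/– libraries of all 6 genes lay outside the *Kat6a*+/+ range, which the choice itself favours, beside 4.53% of genes in proliferating and 2.78% in differentiating NSPCs. In the other condition this held for 1 gene, *Peg3* in differentiating NSPCs. The *Kat6a*–/– libraries of *Inpp4b* and *Peg3* lay outside the *Kat6a*+/+ range in the condition that had not chosen them, as did those of 26.9% of all genes in differentiating NSPCs. In proliferating NSPCs that share was 31.3%, and 0 of the 3 genes chosen elsewhere were separated. The *Kat6a*+/– mean lay between the other means for 2 of 6 genes in proliferating NSPCs (*St8sia4* and *Inpp4b*; 64.2% of all genes) and for 5 of 6 in differentiating NSPCs (all but *St8sia4*; 56.5% of all genes).

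One litter held all 3 genotypes in both conditions. Its libraries are among those that chose the genes, so in the choosing condition the choice favours the order of its wildtype and heterozygous values. In its proliferating cultures *St8sia4* was at 9.02 CPM in the wildtype, 15.0 and 15.5 CPM in the heterozygous and 26.2 and 31.1 CPM in the homozygous libraries. *Inpp4b* was at 26.0 CPM, then 37.8 and 41.0 CPM, then 63.8 and 67.5 CPM in the same order. *Peg3* was at 92.3 CPM, then 68.2 and 72.7 CPM, then 76.6 and 86.6 CPM. In its differentiating cultures *Rundc3a* was at 70.7, 47.8 and then 32.6 and 34.5 CPM. *Pnma1* was at 2.24, 1.07 and then 0.949 and 0.994 CPM, and *Sfmbt2* at 0.333, 1.25 and then 4.27 and 5.54 CPM. In the condition that had not chosen them, *Inpp4b* (4.33, 8.02 and then 15.3 and 19.9 CPM) and *Peg3* (565.1, 354.8 and then 138.2 and 211.1 CPM) had the order of their group means. The heterozygous libraries of *Rundc3a* (30.6 and 35.3 CPM) lay on either side of the wildtype library (33.7 CPM), under homozygous values of 36.7 and 39.6 CPM. The order of the other 3 genes differed from that of their group means. *St8sia4* was at 3.14, 2.79 and then 1.29 and 2.20 CPM, whereas its heterozygous group mean was the highest. *Pnma1* (1.49, 1.77 and 2.17, then 1.23 and 3.17 CPM) and *Sfmbt2* (0.198, 0.889 and 1.21, then 1.67 and 1.90 CPM) had both heterozygous libraries above the wildtype library, whereas their heterozygous group means were the lowest. These are 1 or 2 libraries per genotype, with no test.

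The difference between *Kat6a*–/– and the other genotypes was not the same in both conditions for 4 of the 6 genes. In a fit of all 24 libraries, *Kat6a*–/– against the midpoint differed between conditions, differentiating minus proliferating, by −1.50 (SE 0.26, FDR 0.000511) for *St8sia4*, −1.38 (SE 0.17, FDR 3.79e-05) for *Peg3*, −1.12 (SE 0.16, FDR 0.000138) for *Rundc3a* and 1.49 (SE 0.44, FDR 0.0267) for *Sfmbt2* on the log2 scale. This interaction was called for 14.2% of 13586 genes. It includes the libraries that chose the genes, so its FDR is not independent of the choice. The correlation of the interaction with the choosing difference was not computed. The value of *Inpp4b* was 0.32 (SE 0.16, FDR 0.177) and that of *Pnma1* was −0.55 (SE 0.42, FDR 0.402), neither past the test. Without differentiating *Kat6a*–/– replicates 1 and 3 the values were −1.32 (FDR 0.00482) for *St8sia4*, −1.19 (FDR 0.000874) for *Peg3*, −1.09 (FDR 0.00228) for *Rundc3a* and 1.66 (FDR 0.0360) for *Sfmbt2*. The call of *Sfmbt2* was lost under 5 of 34 alternative settings, among them the fits without proliferating wildtype replicate 1 (FDR 0.0593), homozygous replicate 1 (0.0665) or homozygous replicate 2 (0.0522).

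The genes also differed in level between the conditions themselves. Averaged over genotypes, *St8sia4* (log2 fold-change −2.53), *Inpp4b* (−2.11) and *Pnma1* (−0.48, FDR 0.0224) fell in differentiating against proliferating NSPCs. *Peg3* (1.81) and *Rundc3a* (0.36) rose, and *Sfmbt2* was at 0.15 (FDR 0.549). The FDR was 2.33e-14 for *St8sia4*, 9.55e-16 for *Inpp4b*, 5.41e-15 for *Peg3* and 0.000184 for *Rundc3a*, and 83.1% of all genes were called. For *Rundc3a* and *Sfmbt2* the average covers opposite directions. From proliferating to differentiating, mean *Rundc3a* went from 35.2 to 67.2 CPM in wildtype, 32.9 to 47 in heterozygous and 45.3 to 34.6 in homozygous NSPCs. Mean *Sfmbt2* went from 1.04 to 0.402, 0.906 to 1.46 and 2.16 to 4.83 CPM in the same order of genotypes. Without proliferating *Kat6a*+/+ replicate 1 or *Kat6a*–/– replicate 2 the FDR of *Pnma1* was 0.0507 and 0.0551. RNA was extracted with a different kit in each condition, so kit and condition cannot be told apart. Per kilobase of gene model, the levels in *Kat6a*+/+ NSPCs ran in proliferating cells from *Rundc3a* (11.5 CPM per kb) and *Peg3* (10.6), near each other, through *Inpp4b* (2.54), *St8sia4* (1.57) and *Pnma1* (0.874) to *Sfmbt2* (0.114). In differentiating cells they ran from *Peg3* (48.6) and *Rundc3a* (22.0) through *Pnma1* (1.07), *Inpp4b* (0.598) and *St8sia4* (0.479) to *Sfmbt2* (0.0440).

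**Figure D3:**
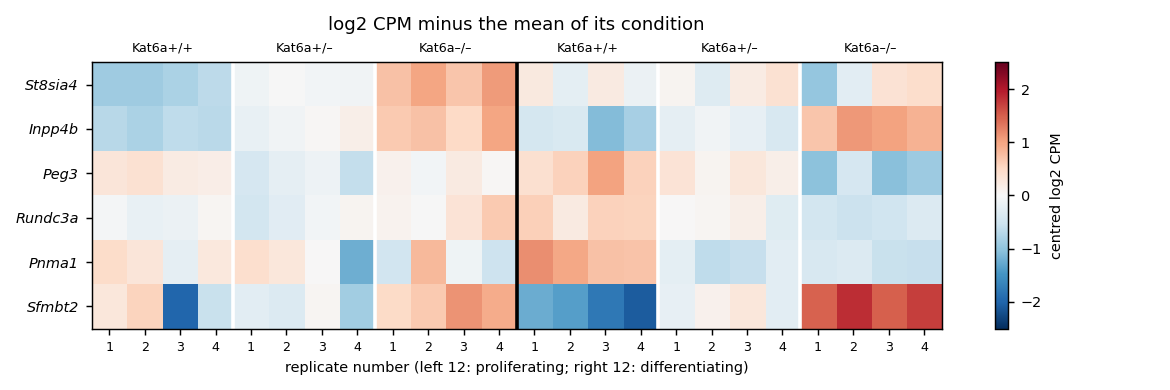
Heat map of log2 CPM (prior count 2) of each gene minus its mean over the 12 libraries of the condition, with a column for each library, ordered by genotype. *Inpp4b* runs from blue to red across genotypes on both sides of the map, whereas *Peg3* runs from red to blue on the right only.

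Over the 24 libraries, after subtraction of each condition's mean, *Inpp4b* and *Sfmbt2* ran together (Pearson's r = 0.81), while *Inpp4b* and *Peg3* ran in opposite directions (r = −0.73). *Peg3* and *Rundc3a* had r = 0.71, and *St8sia4* and *Peg3* had r near 0 (−0.004). These describe libraries that share genotypes, litters and depth. Among 12121 genes, those most like each gene were *Mcf2l* (r = 0.87) and *Svip* (0.85) for *St8sia4*, *Scfd1* and *C1qtnf6* (both 0.91) for *Inpp4b*, and *Agap1* and *Nap1l4* (both 0.87) for *Peg3*. They were *Tmem198* (0.89) and *Natd1* (0.86) for *Rundc3a*, *Sh3kbp1* and *Zfp68* (both 0.75) for *Pnma1*, and *Ndn* (0.91) and *Chchd7* (0.87) for *Sfmbt2*.

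The wider pathways of the 6 genes were counted from 6 lists that leave the genes themselves out, 134 distinct genes. In *Kat6a*–/– against *Kat6a*+/+ NSPCs, 29 of 105 tested list genes were called in proliferating cells (12 higher, 17 lower) and 65 of 113 in differentiating cells (32 higher, 33 lower). That is 27.6% and 57.5%, beside 16.2% of all genes called higher and 13.8% called lower in proliferating, and 26.7% higher and 27.7% lower in differentiating NSPCs. The differentiating count was 14 without *Kat6a*–/– replicates 1 and 3, and 11 and 8 without replicate 1 or replicate 3 alone. Of the called list genes named below, some had *Kat6a*–/– libraries that overlapped the *Kat6a*+/+ range. These were *St8sia1*, *Pik3cb*, *Pik3c2b*, *Rundc3b*, *Rap2a* and *Zcchc12* in differentiating cells and *Usp29* in proliferating cells. In *Kat6a*+/– NSPCs 0 list genes were called by limma, with 6 and 16 at an unadjusted p under 0.05 in proliferating and differentiating cells. There edgeR called 0 and DESeq2 called 0 and 1.

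Of the genes that make, carry or remove sialic acid, 2 of 14 tested rose and 1 fell in proliferating *Kat6a*–/– NSPCs, and 6 rose and 2 fell in differentiating cells. The median log2 fold-change was 0.10 and 0.19, beside 0.00 and −0.02 for all genes. *Ncam1*, the main carrier of polysialic acid, rose in proliferating cells from 245 to 311 CPM (log2 fold-change 0.38, FDR 0.00298), as did its relative *Ncam2* (0.99, FDR 0.000757). *St8sia2*, the other polysialyltransferase, was at 4.08 CPM in wildtype and 2.49 CPM in homozygous cells (−0.63, FDR 0.0887). In differentiating cells *Ncam1* (0.12, FDR 0.326) and *St8sia2* (0.39, FDR 0.170) did not pass, while *Gne*, the first enzyme of sialic acid synthesis (0.83, FDR 9.38e-05), and the ganglioside sialyltransferase *St8sia1* (2.05, FDR 0.000155) rose.

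Of the PI3K pathway genes, 5 of 26 rose and 4 fell in proliferating *Kat6a*–/– NSPCs, and 7 of 27 rose and 10 fell in differentiating cells, with medians of 0.01 and −0.07. *Inpp4a*, the paralog of *Inpp4b*, fell in proliferating cells (−0.38, FDR 0.0203) and was at −0.17 (FDR 0.0674) in differentiating cells. The Akt phosphatase *Phlpp1* (0.32, FDR 0.00257) and the PI3K regulatory subunit *Pik3r3* (0.92, FDR 0.00502) rose in proliferating cells. In differentiating cells the catalytic subunit *Pik3cb* rose (1.24, FDR 5.37e-05) and the class II kinase *Pik3c2b* fell (−1.21, FDR 4.00e-05).

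Of the imprinted genes, 2 of 22 rose and 5 fell in proliferating *Kat6a*–/– NSPCs, and 5 of 24 rose and 8 fell in differentiating cells. The median was −0.01 and −0.44, and in differentiating *Kat6a*+/– cells it was −0.22, beside −0.01 for all genes. *Usp29* is the paternally expressed neighbour that shares the promoter region of *Peg3*. In proliferating cells it was at 3.16, 3.97, 2.68 and 4.13 CPM in wildtype, 1.35, 1.78, 1.61 and 1.44 CPM in heterozygous and 1.12, 0.889, 2.81 and 0.983 CPM in homozygous libraries. These are 15 to 20 counts per heterozygous and 7 to 26 per homozygous library. All *Kat6a*+/– libraries lay below the *Kat6a*+/+ range, as for *Peg3*, but *Usp29* fell in *Kat6a*–/– cells (−1.24, FDR 0.00635) whereas *Peg3* was at −0.14 there. Homozygous replicate 3 of *Usp29* (2.81 CPM) lay within the wildtype range. In differentiating cells *Usp29* fell by 2.57 on the log2 scale (FDR 3.02e-06), with *Kat6a*+/– at −0.82 (FDR 0.199). The maternally expressed neighbour *Zim1* fell in differentiating cells (−2.20, FDR 0.000647) and was at 0.59 (FDR 0.268) in proliferating cells. It held 6 to 98 counts per differentiating and 6 to 36 per proliferating library. *Grb10*, an inhibitor of growth factor signalling, fell in proliferating cells (−1.46, FDR 0.000743), *Impact* rose there (0.78, FDR 0.00243), and *Nnat*, which encodes neuronatin, fell in differentiating cells (−3.42, FDR 4.40e-06).

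**Figure D4:**
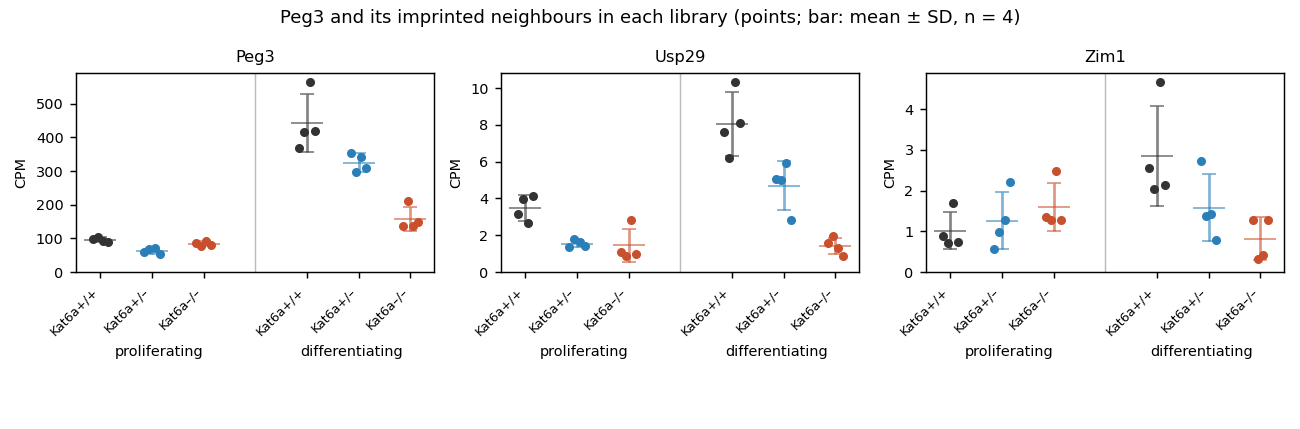
Level in CPM (linear axes from 0) of *Peg3* and its neighbours *Usp29* and *Zim1* in each library, with points for libraries and bars for the mean ± SD of 4. In proliferating NSPCs the *Kat6a*–/– points of *Peg3* return to near the *Kat6a*+/+ points (76.6 to 93.1 CPM). The *Kat6a*–/– points of *Usp29* are low in replicates 1, 2 and 4 (0.889 to 1.12 CPM). In replicate 3 *Usp29* is within the *Kat6a*+/+ range (2.81 CPM).

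Of the RUN domain and RAP2 genes, 1 of 18 rose and 4 fell in proliferating *Kat6a*–/– NSPCs, and 6 of 19 rose and 4 fell in differentiating cells, with medians of 0.05 and −0.02. *Rundc3b*, the paralog of *Rundc3a*, fell in both proliferating (−1.07, FDR 0.0374) and differentiating cells (−0.92, FDR 0.0105). Of the RAP2 GTPases, *Rap2a* (0.29, FDR 0.00975) and *Rap2b* (0.72, FDR 5.92e-06) rose in differentiating cells, where *Rundc3a* fell. *Dennd5b*, a RUN domain protein of membrane traffic, fell in proliferating (−0.40, FDR 0.00147) and differentiating cells (−0.65, FDR 2.80e-05), and *Dennd5a* fell in proliferating cells (−0.33, FDR 0.00386).

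Of the PNMA and other Gag-derived genes, 1 of 13 rose and 0 fell in proliferating *Kat6a*–/– NSPCs, and 5 of 16 rose and 6 fell in differentiating cells, with medians of 0.11 and 0.19. The gene that rose in proliferating cells was *Rtl8c* (0.38, FDR 0.0252), and *Rtl5* was at 0.31 (FDR 0.0654). *Pnma8a* (−2.23, FDR 1.64e-05) and *Zcchc12* (−2.87, FDR 5.04e-05) fell in differentiating cells. *Pnma2* was too low to be tested in proliferating cells and was at 0.00 (FDR 0.987) in differentiating cells.

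Of the MBT repeat and YY1 genes, 1 of 13 rose and 3 fell in proliferating *Kat6a*–/– NSPCs, and 3 of 14 rose and 4 fell in differentiating cells, with medians of −0.07 and −0.01. *Sfmbt1*, the paralog of *Sfmbt2*, was at −0.07 (FDR 0.636) and 0.13 (FDR 0.205), and *Yy1* at −0.15 (FDR 0.234) and 0.08 (FDR 0.256), in proliferating and differentiating cells. The Polycomb subunits *Phc1* (−0.53, FDR 0.00244) and *Phc2* (−0.22, FDR 0.00974) fell in proliferating cells. The MBT repeat genes *Mbtd1* (−0.81, FDR 4.45e-05) and *L3mbtl2* (−0.67, FDR 5.98e-05) fell in differentiating cells, where *Sfmbt2* rose.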

How the data were processed

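The authors aligned reads from stranded libraries of polyadenylated RNA (200 ng per sample) to mm39 with Rsubread and counted reads per gene with featureCounts and a strict RefSeq annotation. The deposited tables hold raw counts for 26411 genes, and versions and the strand setting are not given in the sources used here, so genes that overlap on opposite strands are uncertain. Following the study's methods, protein-coding genes that passed filterByExpr were kept, *Xist* and Y-linked genes were removed, and library sizes were scaled by TMM (edgeR 4.0.16). For proliferating libraries limma-voom (limma 3.58.1) was used, and litter entered as a random block (correlation 0.287 within litters). For differentiating libraries limma-trend was run on log2 CPM with a prior count of 2 and quality weights. A limma-voom fit of all 24 libraries gave the condition and interaction contrasts. Empirical Bayes moderation was robust, and adjustment was by Benjamini and Hochberg over all tested genes. For differentiating *Kat6a*–/– against *Kat6a*+/+ NSPCs, the paper reports fewer genes at this threshold than the 7258 called here. The reason was not tested. Printed CPM are unweighted, so a fitted value can differ from a ratio of mean CPM. The midpoint contrast had a correlation of 0.0355 (proliferating) and −0.188 (differentiating) with the choosing difference, and shares its residual spread. Of the embryos, 6 gave libraries in both conditions (2 *Kat6a*+/+, 1 *Kat6a*+/– and 3 *Kat6a*–/–). The labels of *Kat6a*+/+ replicate 2 differ between conditions by the order of digits in the litter number and share the embryo number. They were taken as different embryos, so if that is a slip in a label, 1 more *Kat6a*+/+ embryo is shared, and it remained in the fits without shared embryos.

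The 6 genes, the lists and the tests were chosen with earlier results of these data known. Besides the 6 genes, the text names the next gene by p in each condition, the 2 genes most correlated with each, the 2 of each list with the smallest p per condition, and 11 further pathway genes. A gene that the rule named is not reported here. Promoter sequences are from RefSeq. The scripts were tested on simulated counts. Between replicates of a group the chi-square per degree of freedom was at least 5.55, so no libraries were alike within sampling noise. Alternatives (DESeq2 1.42.0 size factors, library totals, no filter, edgeR, DESeq2, litter as a fixed term, a replicate block, an *Xist* term, other weights, embryo as block, shared embryos or single libraries left out) are reported at the end, and the fit without *Kat6a*–/– replicates 1 and 3 was added after seeing the data.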

Additional observations from a re-analysis of the deposited data

Results flagged for a closer look

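The *Kat6a*–/– against midpoint difference depended on condition, by the interaction test, for *St8sia4* (−1.50 on the log2 scale, differentiating minus proliferating), *Peg3* (−1.38), *Rundc3a* (−1.12) and *Sfmbt2* (1.49). That test includes the libraries that chose the genes and is not independent of the choice.

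In 36 groups of 4 libraries, 2 held a library far from the others by Dixon's test, and chance flags about 1 in 20 groups. Differentiating *Kat6a*–/– replicate 2 had *Peg3* at 211.1 CPM, against 137, 138 and 149 CPM in the other libraries of its group, and it carried the least weight of its group in the fit (4.22%). Without it the *Peg3* log2 fold-change in *Kat6a*–/– NSPCs was −1.69 (FDR 8.61e-08, limma). Differentiating *Kat6a*+/+ replicate 2 had *Rundc3a* at 55.4 CPM, against 70.2, 70.7 and 72.5 CPM.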

How the results depend on the processing

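Over 813 values of single genes under alternative settings, 777 kept their side of the threshold and 36 lost a call; none gained one, and no called value changed sign. The count of genes called against the midpoint was 4 or 5 throughout, that in *Kat6a*+/– in the other condition 0, that of the interaction 3 or 4 and that between conditions 4 or 5. The 4 calls of *Kat6a*–/– in the other condition were 2 with edgeR, with an *Xist* term and without shared embryos, and 2 to 4 with single libraries left out; edgeR and the *Xist* term lost *Rundc3a* and *Sfmbt2*. The cause was not tested.

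The 65 pathway genes called in differentiating *Kat6a*–/– NSPCs became 31 with edgeR, 40 with DESeq2, 15 with litter as a fixed term, 33 with an *Xist* term, 28 without quality weights, 14 without *Kat6a*–/– replicates 1 and 3 (fewer samples), and 8 to 80 with single libraries left out. In proliferating NSPCs the 29 were 20 to 39 over all settings.

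Same-numbered libraries did not deviate together (correlations of −0.468 to 0.481), so replicate numbers did not pair them. With the replicate block, 5 genes were called against the midpoint, 0 and 3 in the other condition for *Kat6a*+/– and *Kat6a*–/–, 4 in the interaction, 5 between conditions, and 28 and 66 pathway genes; *Sfmbt2* in proliferating *Kat6a*–/– NSPCs had an FDR of 0.0795. Without shared embryos 1 *Kat6a*–/– library remained per condition, assumed to vary like the others. *Pnma1*, *Sfmbt2*, *Usp29* and *Zim1*, with under 20 counts in some libraries, are limited by depth. So is *St8sia4* in differentiating NSPCs, where homozygous replicate 1 held 19 counts.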
